A study of Homo sapiens with 8 samples.

Results

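The genes described here encode the subunits of the mitochondrial respiratory chain that are made from nuclear DNA. They are the protein-coding genes of the deposited count table whose symbols begin with NDUFA, NDUFB, NDUFC, NDUFS or NDUFV and a number, with SDHA to SDHD, with UQCR, with COX and a subunit number from COX4 to COX8, or with ATP5F, ATP5M or ATP5P, and whose mean level over the 8 libraries was at least 1 CPM, the gene's count scaled by library size. Of the 58787 genes in the table, 88 matched by symbol and 71 reached the minimum level. By complex, 32 members belonged to complex I, 3 to complex II, 9 to complex III, 11 to complex IV and 16 to complex V. NDUFA4 was counted with complex IV, since its protein is now placed there in spite of its name. The symbol rule leaves out CYC1, CYCS, NDUFAB1 and ATP5IF1, which are given with the related genes. Subunits encoded in mitochondrial DNA were not analysed here, since the count table held 0 genes whose symbol begins with MT-.

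The respiratory chain sits in the inner mitochondrial membrane. Complex I takes electrons from NADH and complex II takes them from succinate, complex III passes them from ubiquinol to cytochrome c, and complex IV hands them to oxygen; complex V, the ATP synthase, uses the proton gradient that complexes I, III and IV build. Each complex except complex II combines proteins made in the cytosol with proteins made inside the mitochondrion, and the nuclear genes for them are transcribed in most cell types, with NRF1, the ETS factor GABPA and YY1 among their best known transcription factors.

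RNA was sequenced from IMR32, an established human neuroblastoma line with amplified MYCN, labelled wild type in both groups. One group received CR31B at its IC50 and the other 0.1% DMSO, the vehicle, for 6 h, with 4 libraries each, which the series design calls biological replicates. CR31B is a rocaglate, a compound that clamps the RNA helicase eIF4A on RNA and blocks translation initiation. It is 1 line at 1 dose and 1 time, and in bulk RNA fewer cells of a type and less RNA per cell cannot be told apart.

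Library totals ran from 43687828 to 64715535 counts. The sequencing layout was paired-end for replicate 1 of each group and single-end for replicates 2 to 4. The 2 replicate 1 libraries stood on the opposite side of their labelled groups: the first principal component, with 51.8% of the variance, placed CR31B replicate 1 at -26.4 among the DMSO libraries (-29.4 to -25.8 in replicates 2 to 4) and DMSO replicate 1 at 32.0 beyond the CR31B libraries (19.0 to 28.95). By the mean chi-square per gene between 2 libraries, CR31B replicate 1 was nearest to DMSO replicate 2 (8.60) and DMSO replicate 1 to CR31B replicate 4 (7.70), while the 2 were at 86.1 or more from the libraries of their own labelled group on the CR31B side and at 83.2 or more on the DMSO side. No label was changed, and whether the 2 were exchanged was not tested. Values over all 8 libraries, and the test that sets replicate 1 against the others, therefore hold for the labels as given. Counts of called members and the medians of the complexes are given for the 8 libraries and for the 6 single-end libraries, which are replicates 2 to 4 of each group; values of single genes are from the single-end libraries unless stated. The cell type label was checked with markers: all 8 adrenergic neuroblast markers were detected, and of 8 mesenchymal-type markers PRRX1 was at 0. In the single-end libraries the adrenergic markers summed to 3657 to 3942 CPM with CR31B and 2554 to 2587 CPM with DMSO. In replicate 1 the order was reversed, 2564 CPM with CR31B and 3714 CPM with DMSO. In the single-end fit (adjusted p under 0.05) 5 of the 8 were higher and 2 lower, with log2 fold changes from -0.98 to 1.78. Those are 62.5% and 25%, beside 23.8% and 17.6% of all tested genes. The mesenchymal-type sums overlapped, 473 to 611 CPM and 383 to 476 CPM, and of 7 markers tested 1 was higher (14.3%) and 0 lower. In replicate 1 they were 346 CPM with CR31B and 451 CPM with DMSO. The part of these differences in the results below was not tested.

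In the 6 single-end libraries most respiratory chain genes were lower with CR31B, each by a small amount. Of the 71 members, 53 were lower and 3 (NDUFS1, NDUFC2 and SDHD) were higher past the threshold of 0.05 on the adjusted p (edgeR, with Benjamini-Hochberg adjustment over all 16696 genes tested), and 15 were not called. Among all tested genes 17.6% were called lower, 23.8% higher and 41.3% in either direction, so 74.6% of members called lower stands beside 17.6%. The members' median log2 fold change was -0.26, beside -0.01 for all tested genes, and corresponds to a median change of -16.5%. Values ran from -0.62 (ATP5MF) to 0.42 (SDHD), and no member passed a 2-fold change. The 56 called members had a median size of 0.29 on the log2 scale, beside 0.39 for the 6901 called genes of the whole table. The CR31B and DMSO values did not overlap for 56 members in the lower direction and 3 in the higher, where the table as a whole gave 24.4% and 27.7%. Fitted with the replicate number as a block, 57 members were lower and 3 higher, beside 23.1% and 28.1% of all genes.

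In the 8 libraries as labelled no member was called by edgeR, and neither was any other of the 16518 genes tested (0%). The members' median log2 fold change there was -0.15, the values ran from -0.42 to 0.20, and the adjusted p from 0.707 to 0.9996. SDHC and ATP5MF were the 2 members with an unadjusted p under 0.05 (205 genes in the whole table), and DESeq2 and limma voom called 0 members too. With CR31B replicate 1 left out, 55 members were called (3 higher and 52 lower), and with DMSO replicate 1 left out, 54 (3 higher and 51 lower). The whole table moved too. Of 16640 genes tested without CR31B replicate 1, 3966 were higher and 2954 lower (17.8% lower). Of 16807 tested without DMSO replicate 1, 3974 were higher and 2932 lower (17.4% lower). Leaving out any of the other 6 libraries gave 0.

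**Figure D1:**
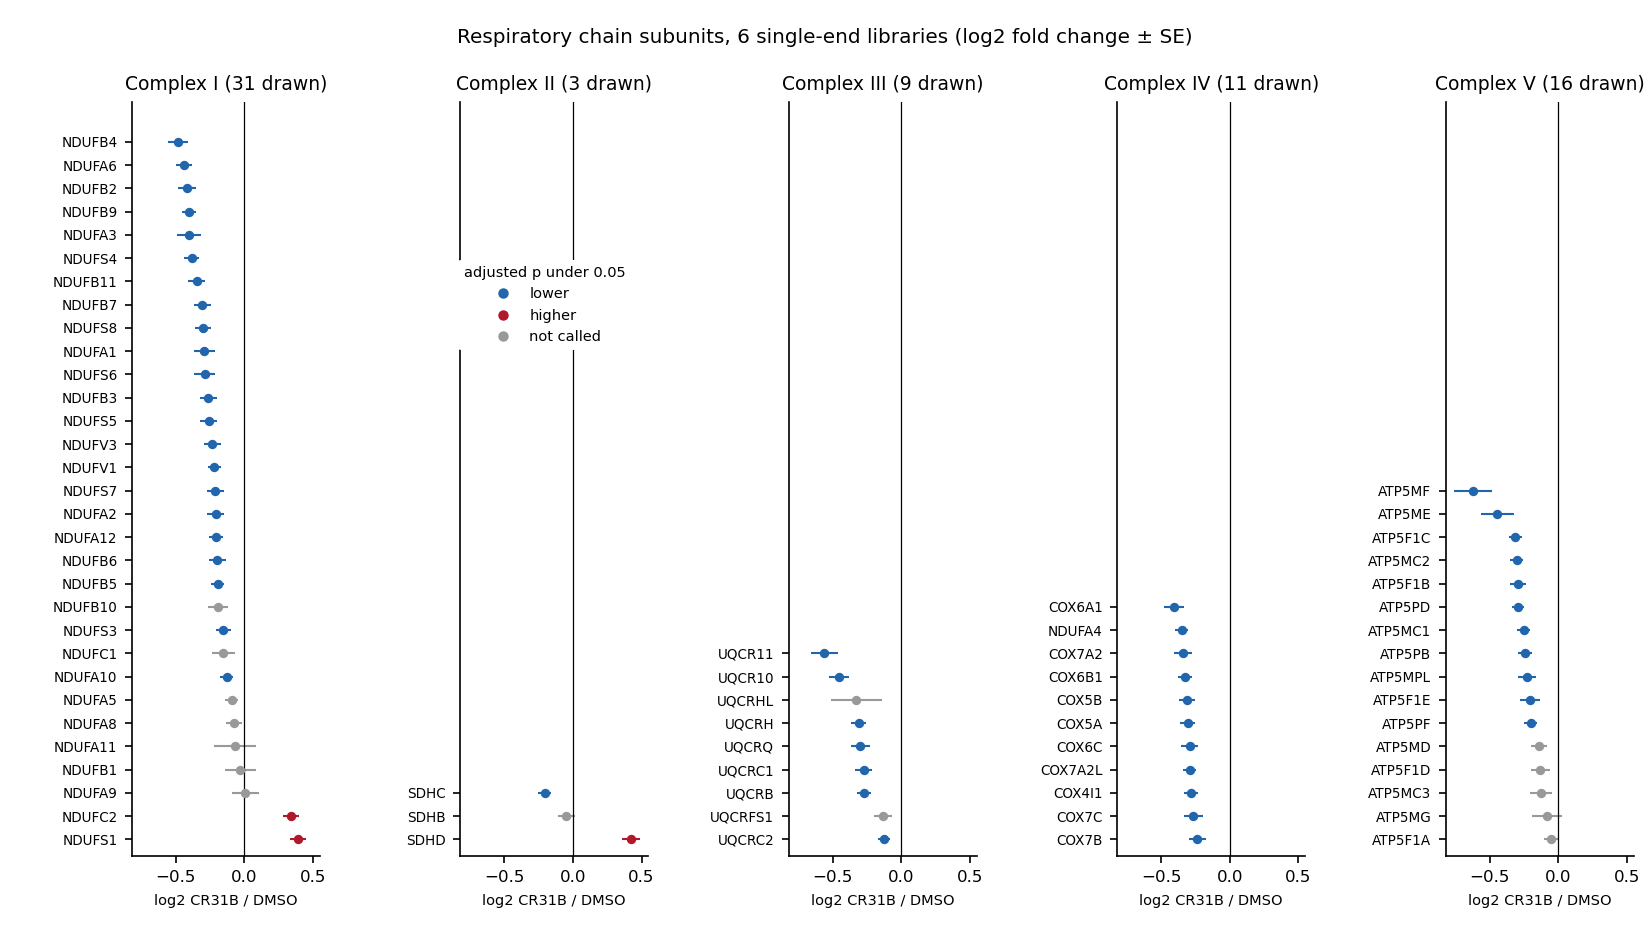
Log2 fold change of CR31B over DMSO (x axis) for 70 of the 71 members (y axis), by complex, in the 6 single-end libraries; points are fitted values, bars are standard errors and colours give the call at an adjusted p under 0.05. The 52 blue points lie between -0.62 and -0.13, and the 3 red points are NDUFC2, NDUFS1 and SDHD.

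The replicate 1 pair moved the other way. Its difference of log2 CPM, CR31B minus DMSO, had a median of 0.19 over the members and was above 0 for 61 of them, whereas the medians in replicates 2, 3 and 4 were -0.25, -0.29 and -0.23, with 65, 67 and 65 members below 0. All 56 called members had the sign of their fold change in each of replicates 2, 3 and 4, which follows largely from their being called in those replicates. Of the 56, 54 had the opposite sign in replicate 1, the exceptions being NDUFB6 and SDHC. The test of the interaction between treatment and sequencing layout was passed by 48 members, beside 42.5% of all genes tested, and all 48 had opposite signs in replicate 1 and in the single-end fit. Paired-end layout and replicate number 1 fall on the same 2 libraries and cannot be told apart.

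**Figure D2:**
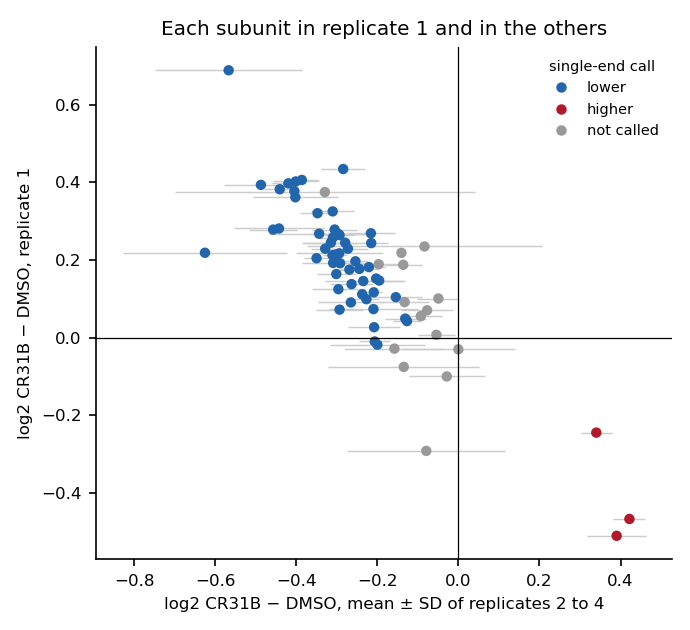
Difference of log2 CPM between the CR31B and DMSO libraries of replicate 1 (y axis) against the mean difference in replicates 2 to 4 (x axis, bars are the SD of the 3 differences) for the 71 members, coloured by the call in the single-end fit. Of the 56 called members, 54 lie in the upper left or lower right of the crossing lines, with opposite signs on the axes.

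Fold changes also differed with transcript length. Protein-coding genes whose longest transcript was within the members' interquartile range (937 to 2704.5 bases, 3617 genes) had a median log2 fold change of -0.08, with 26.1% lower and 16.9% higher, while all tested protein-coding genes had 0.02, 19.6% and 28.8%. Among members, the 24 with the shortest transcripts (496 to 1163 bases) had a median of -0.30 with 20 lower, and the 23 with the longest (2406 to 13566 bases) had -0.21 with 15 lower and 2 higher. With offsets for GC content and length in the fit, 37 members were lower and 2 higher, where 19.9% and 19.2% of all genes were, and the members' median was -0.21 beside -0.04 for all genes. Under these offsets the order by length turned: the members with the shortest transcripts had a median of -0.15 with 6 lower, and those with the longest -0.28 with 17 lower. Of the 56 calls 36 kept their direction and threshold, and ATP5F1A, ATP5MC3 and NDUFA5 (the last named after its value was seen) came in as lower. Adding the replicate block to the offsets gave 48 lower and 3 higher, beside 26.9% and 23.7% of all genes.

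**Figure D3:**
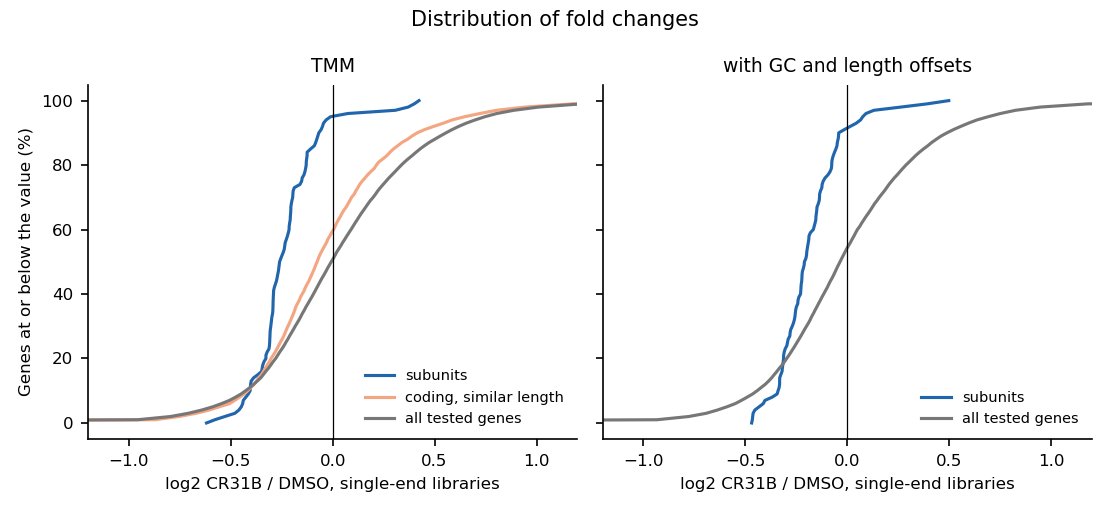
Percentage of genes at or below each log2 fold change (x axis, 6 single-end libraries) for the members, for all tested genes and, on the left, for protein-coding genes of similar transcript length; the right panel uses offsets for GC content and length. The members' curve crosses 50% at -0.26 on the left and -0.21 on the right, beside -0.01 and -0.04 for all tested genes.

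Summed over the 71 members, the level was 5302 to 5639 CPM in CR31B replicates 2 to 4 and 6342 to 6510 CPM in DMSO replicates 2 to 4, means of 5522 ± 190.4 and 6436 ± 85.7 CPM (SD, n = 3 each). In replicate 1 it was 6423 CPM with CR31B and 5758 CPM with DMSO. The single-end groups did not overlap, and each replicate 1 library lay nearer to the other group. CR31B replicate 3 was the lowest of the 3 single-end CR31B libraries for 46 of the 71 members; without it the members' median log2 fold change was -0.21 in place of -0.26. Complexes I, III, IV and V kept 1 order across these libraries, with every CR31B median below every DMSO median, and complex II did not.

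**Figure D4:**
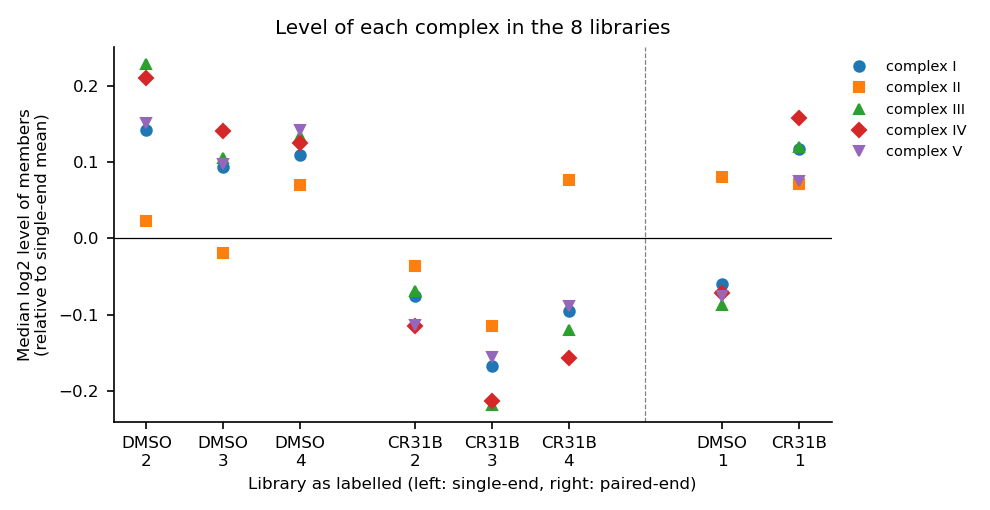
Median over a complex's members of the log2 level relative to the mean of the 6 single-end libraries (y axis) in each library as labelled (x axis). For complexes I, III, IV and V all 3 single-end CR31B medians are below 0 and all 3 DMSO medians above 0, the replicate 1 pair is the other way round, and complex II lies between -0.12 and 0.08.

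RefSeq promoter stretches (GRCh38.p14, 250 bases before to 50 bases after the start) were matched for 57 of the 71 members and searched on both strands for 3 motifs. The NRF1 motif, GCGCA and GCGC with 1 base of any kind between them, was in 14 of the 57 (24.6%, Wilson 95% interval 15.2% to 37.1%), beside 8.58% of 15843 protein-coding promoters of the same length. The ETS motif CCGGAAG, the core that GABPA binds, was in 18 (31.6%, interval 21.0% to 44.5%) beside 14.2%. The YY1 motif AANATGGC was in 18 (31.6%) beside 7.92%; with the 250 upstream bases alone it was in 7.02% beside 3.65%. No member had an ETS match overlapping a YY1 match. At least 1 of the 3 motifs was in 36 promoters (63.2%), beside 26.6%. Of the 43 matched members called lower, 9 held the NRF1 motif, 13 the ETS motif and 14 the YY1 motif, and of the 14 others 5, 5 and 4. The stretches below are from 6 members called lower and show each motif, in capitals, with its surroundings upstream of the RefSeq start; a match is a description of these letters, not a measured binding site.
NDUFA12: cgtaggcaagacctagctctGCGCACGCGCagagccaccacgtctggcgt
NDUFB4: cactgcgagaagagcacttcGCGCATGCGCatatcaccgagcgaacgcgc
NDUFB4: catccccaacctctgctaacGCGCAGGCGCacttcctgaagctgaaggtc
NDUFB7: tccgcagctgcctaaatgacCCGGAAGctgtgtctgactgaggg
NDUFS8: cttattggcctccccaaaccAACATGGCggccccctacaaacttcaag
UQCR11: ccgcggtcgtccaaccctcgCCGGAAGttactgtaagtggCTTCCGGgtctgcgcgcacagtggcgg
ATP5PD: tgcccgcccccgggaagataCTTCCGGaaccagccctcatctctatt
The NDUFA12 stretch (chr12:95003784-95003833, minus strand) and both NDUFB4 stretches (chr3:120596157-120596206, plus strand, and chr3:120596253-120596302, plus strand) hold the NRF1 motif. Those of NDUFB7 (chr19:14572067-14572110, minus strand), UQCR11 (chr19:1605533-1605599, minus strand, with 1 match on each strand) and ATP5PD (chr17:75047044-75047090, minus strand) hold the ETS motif, and that of NDUFS8 (chr11:68030481-68030528, plus strand) holds the YY1 motif. Sequences are written 5′ to 3′ on the gene's strand.

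Complex I, the NADH dehydrogenase, had 23 of its 32 members lower and 2 higher in the single-end libraries, with a median log2 fold change of -0.21. Its core members are the nuclear subunits that carry out electron transfer. NDUFS1, the largest core subunit, which holds iron-sulfur clusters of the NADH-binding arm, rose (chr2:206114817-206159603, minus strand, GENCODE 29 on GRCh38). NDUFS1 stood at 162, 165 and 174 CPM in CR31B replicates 2 to 4 and 118, 132 and 132 CPM in DMSO replicates 2 to 4, and in replicate 1 at 127 CPM with CR31B and 181 CPM with DMSO. The single-end groups were apart by more than the spread within either, and the replicate 1 pair was reversed. The NDUFS1 log2 fold change was 0.39 ± 0.06 (SE), adjusted p = 0.000456. Over all 8 libraries its log2 fold change was 0.17 with an adjusted p of 0.707. The NDUFS1 call ended with the GC and length offsets (0.14, adjusted p = 0.105).

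The core members NDUFV1, NDUFS3, NDUFS7 and NDUFS8 fell. NDUFV1, which binds NADH and the flavin, had a log2 fold change of -0.22 ± 0.05 (SE), adjusted p = 0.00347. NDUFS3, NDUFS7 and NDUFS8, of the arm that leads to the ubiquinone site, had -0.15, -0.21 and -0.30, with adjusted p of 0.0407, 0.0175 and 0.00152. NDUFS8 stood at 82.1, 74.2 and 80.5 CPM in CR31B replicates 2 to 4 and 100.4, 93.7 and 98.0 CPM in DMSO replicates 2 to 4, which do not overlap, and in replicate 1 at 97.0 CPM with CR31B and 83.6 CPM with DMSO. NDUFS3 lost its call with the offsets (-0.08, adjusted p = 0.384). The core subunit NDUFV2 had a mean of 0.538 CPM and was no member.

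The 26 accessory members of complex I, which stabilise the enzyme and take no direct part in electron transfer, had 18 lower and 1 higher. NDUFB9, a subunit of the membrane arm, stood at 127, 122 and 119 CPM in CR31B replicates 2 to 4 and 169, 161 and 158 CPM in DMSO replicates 2 to 4, and in replicate 1 at 153 CPM with CR31B and 118 CPM with DMSO. It had the lowest adjusted p of the 71 members, with a log2 fold change of -0.40 ± 0.05 (SE), adjusted p = 0.000128, and -0.41, adjusted p = 0.000287 with the offsets. NDUFB4, also of the membrane arm and with 2 NRF1 matches above, stood at 35.3, 29.2 and 34.1 CPM in CR31B replicates 2 to 4 and 46.9, 44.0 and 47.0 CPM in DMSO replicates 2 to 4, and in replicate 1 at 43.5 CPM with CR31B and 33.1 CPM with DMSO. Its log2 fold change, -0.48 ± 0.07 (SE), was the lowest of complex I. Other accessory members that fell were NDUFA6, NDUFS4 and NDUFB2, with -0.44 ± 0.06 (SE), adjusted p = 0.000204, with -0.38 ± 0.06 (SE), adjusted p = 0.000419, and with -0.42 ± 0.06 (SE), adjusted p = 0.000467. NDUFA6 is an LYR-motif protein that holds the acyl carrier protein NDUFAB1, and NDUFS4 is a subunit whose loss causes Leigh syndrome. For NDUFB4, NDUFA6, NDUFS4 and NDUFB2 the CR31B and DMSO values were apart in the single-end libraries and the order was reversed in replicate 1.

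NDUFC2, an accessory subunit of the membrane arm, was the single accessory member that rose (chr11:78068304-78080219, minus strand). It stood at 37.5, 38.9 and 37.0 CPM in CR31B replicates 2 to 4 and 29.3, 31.6 and 28.7 CPM in DMSO replicates 2 to 4, without overlap, and in replicate 1 at 29.5 CPM with CR31B and 34.9 CPM with DMSO. The NDUFC2 log2 fold change was 0.34 ± 0.06 (SE), adjusted p = 0.00114, and 0.19 over all 8 libraries (adjusted p = 0.707). In the annotation 76.9% of its coding bases also lie in the readthrough gene NDUFC2-KCTD14 on the same strand, which is listed at 0 in every library. The 7 accessory members that were not called were NDUFA5, NDUFA8, NDUFA9, NDUFA11, NDUFB1, NDUFB10 and NDUFC1, with log2 fold changes from -0.19 (NDUFB10, adjusted p = 0.0512) to 0.01 (NDUFA9); with the replicate block NDUFB10 was called lower (adjusted p = 0.00282). The complex I median was -0.13 over all 8 libraries, and with the GC and length offsets 14 members were lower and 1 higher.

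Complex II, succinate dehydrogenase, links the chain to the tricarboxylic acid cycle and had 1 member lower, 1 higher and 1 not called in the single-end libraries. SDHC and SDHD, the membrane anchors that bind ubiquinone together, went in opposite directions. SDHD (chr11:112086773-112120013, plus strand) stood at 25.5, 27.0 and 27.0 CPM in CR31B replicates 2 to 4 and 19.3, 20.5 and 19.5 CPM in DMSO replicates 2 to 4, and in replicate 1 at 22.1 CPM with CR31B and 30.5 CPM with DMSO. Its log2 fold change of 0.42 ± 0.06 (SE), adjusted p = 0.000398 was the highest of all members, and was 0.50, adjusted p = 0.000179 with the offsets. SDHC (chr1:161314257-161375340, plus strand) stood at 129, 129 and 133 CPM in CR31B replicates 2 to 4 and 146, 154 and 152 CPM in DMSO replicates 2 to 4, and in replicate 1 at 147 CPM with CR31B and 148 CPM with DMSO. The SDHC groups did not overlap in the single-end libraries, and its replicate 1 difference was in the same direction, which was so for 1 other called member. The SDHC log2 fold change was -0.21 ± 0.05 (SE), adjusted p = 0.00523, and -0.47 with the offsets. Over all 8 libraries the log2 fold change was 0.20 for SDHD and -0.16 for SDHC, both with an adjusted p of 0.707, and the complex II median was -0.01.

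SDHB, the iron-sulfur subunit of complex II, stood at 33.7, 31.9 and 36.5 CPM in CR31B replicates 2 to 4 and 35.1, 34.1 and 36.3 CPM in DMSO replicates 2 to 4, and the groups overlapped (log2 fold change -0.05 ± 0.06 (SE), adjusted p = 0.596). With the offsets its sign turned to 0.07, also without a call. SDHA, the flavoprotein subunit, had a mean of 0.628 CPM and was under the minimum; the genome holds pseudogene copies of SDHA, and reads that match a copy as well could be left uncounted or split, so its level is uncertain. For SDHD 47.7% of coding bases lie in another annotated gene of the same strand, AP002884.3, so reads in that stretch may belong to either gene.

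Complex III, the cytochrome bc1 complex, had 7 of 9 members lower in the single-end libraries, with all 9 fitted values below 0 and a median log2 fold change of -0.30. The 2 smallest subunits fell furthest. UQCR11, which has the paired ETS motifs printed above, stood at 10.9, 8.68 and 9.46 CPM in CR31B replicates 2 to 4 and 14.0, 14.0 and 14.9 CPM in DMSO replicates 2 to 4, and in replicate 1 at 14.5 CPM with CR31B and 8.98 CPM with DMSO. Its log2 fold change was -0.56 ± 0.10 (SE), adjusted p = 0.00103. UQCR10 stood at 28.9, 24.9 and 28.4 CPM in CR31B replicates 2 to 4 and 39.3, 35.8 and 37.7 CPM in DMSO replicates 2 to 4, and its log2 fold change was -0.45 ± 0.07 (SE), adjusted p = 0.00058. Both sets of single-end values were apart, and for both genes replicate 1 was reversed. All coding bases of UQCR11 also lie in AC005943.1, an overlapping gene on the same strand.

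UQCRH, the acidic hinge protein next to cytochrome c1, and UQCRB, which lies near the ubiquinone site, fell with log2 fold changes of -0.31 ± 0.05 (SE) and -0.27 ± 0.05 (SE) (adjusted p = 0.00115 and 0.00169). UQCRC1 and UQCRC2, the core proteins on the matrix side, had -0.27 and -0.13, with adjusted p of 0.00655 and 0.0475. With the GC and length offsets UQCRH (-0.14, adjusted p = 0.115) and UQCRC2 (-0.13, adjusted p = 0.0987) lost their calls. UQCRFS1, the Rieske iron-sulfur protein, stood at 72.0, 62.6 and 68.0 CPM in CR31B replicates 2 to 4 and 76.3, 69.5 and 76.7 CPM in DMSO replicates 2 to 4, which overlap. It was not called (log2 fold change -0.13 ± 0.06 (SE), adjusted p = 0.125), and with the replicate block it was lower (adjusted p = 0.02). UQCRHL, a near copy of UQCRH without its introns, lay just inside the level minimum at 1.59 CPM and was not called (log2 fold change -0.33 ± 0.19 (SE), adjusted p = 0.191); reads from UQCRH could be counted to it, so its level is uncertain. The complex III median was -0.15 over all 8 libraries. With the offsets 4 of the 9 were lower.

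Complex IV, cytochrome c oxidase, was the one complex with every member called: all 11 were lower in the single-end libraries, with log2 fold changes between -0.40 (COX6A1) and -0.24 (COX7B) and a median of -0.31. COX5A, a subunit on the matrix side, stood at 153, 140.2 and 155 CPM in CR31B replicates 2 to 4 and 191, 182 and 181 CPM in DMSO replicates 2 to 4, and in replicate 1 at 188 CPM with CR31B and 165 CPM with DMSO. NDUFA4 stood at 77.4, 74.3 and 77.0 CPM in CR31B replicates 2 to 4 and 101, 95.1 and 95.9 CPM in DMSO replicates 2 to 4, and in replicate 1 at 94.5 CPM with CR31B and 82.0 CPM with DMSO. In both genes the groups were apart, with the replicate 1 pair reversed. The log2 fold changes were -0.31 ± 0.05 (SE), adjusted p = 0.00116, for COX5A, and -0.35 ± 0.05 (SE), adjusted p = 0.000259, for NDUFA4. COX6B1, which faces the intermembrane space, and COX7A2L, which helps join complexes III and IV into supercomplexes, had -0.33 ± 0.05 (SE), adjusted p = 0.00068, and -0.29 ± 0.05 (SE), adjusted p = 0.000724. All 11 also passed the interaction test, with opposite signs in replicate 1. Over all 8 libraries their median was -0.18 with 0 called, and with the GC and length offsets 8 of the 11 were lower, COX6B1 (-0.15, adjusted p = 0.0587) not among them.

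Several complex IV subunits have tissue forms, and in IMR32 the widely expressed form had the higher counted level in each pair examined. COX4I1, the subunit through which ATP slows the enzyme, had 20.5 CPM per kb of exon, beside 1.254 for COX4I2. This scale divides the level by all annotated exon bases of a gene. COX6A1, COX6B1, COX7A2 and COX7B had 19.2, 44.3, 42.2 and 19.0 CPM per kb. Their counterparts in heart and muscle, COX6A2 and COX7A1, and the testis-type form COX7B2 had 0 counts in all 8 libraries, which allows up to 0.0687 CPM in the shallowest library (3 counts, counting error only). COX6B2 had 0.119 CPM per kb, but 100% of its coding bases lie in AC020922.1 on the same strand, so its level is uncertain. For COX6A1 53.5% of coding bases lie in AL021546.1. The log2 fold changes of COX4I1, COX6A1 and COX7A2 were -0.28 ± 0.05 (SE), -0.40 ± 0.07 (SE) and -0.34 ± 0.07 (SE), all called (adjusted p = 0.0015, 0.0016 and 0.00239). NDUFA4L2, the paralogue of NDUFA4 known as a hypoxia-induced gene, was under the minimum at 0.968 CPM. NDUFA4L2 was higher in the single-end libraries, at 1.19 ± 0.127 CPM with CR31B and 0.713 ± 0.0547 CPM with DMSO (SD, n = 3 each), with a log2 fold change of 0.73 ± 0.18 (SE), adjusted p = 0.00867. COX4I2 (-0.17) and COX6B2 (-0.05) were not called.

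Complex V, the ATP synthase, had 11 of 16 members lower in the single-end libraries, with all 16 fitted values below 0 and a median log2 fold change of -0.23. In its catalytic F1 head, 3 of 5 members fell. ATP5F1B, the catalytic beta subunit and the highest member per length (306 CPM per kb of exon), stood at 641, 592 and 681 CPM in CR31B replicates 2 to 4 and 787, 763 and 798 CPM in DMSO replicates 2 to 4, and in replicate 1 at 779.9 CPM with CR31B and 648 CPM with DMSO. Its log2 fold change was -0.29 ± 0.06 (SE), adjusted p = 0.00298. ATP5F1A, the alpha subunit that alternates with beta in the head, stood at 428, 407 and 449.6 CPM in CR31B replicates 2 to 4 and 441, 438 and 454 CPM in DMSO replicates 2 to 4. The ATP5F1A groups overlapped, and it was not called (log2 fold change -0.05 ± 0.05 (SE), adjusted p = 0.47; with the offsets -0.19, adjusted p = 0.0374). ATP5F1C, the gamma subunit of the rotating shaft, had -0.31 ± 0.05 (SE), adjusted p = 0.000591. The epsilon subunit gene ATP5F1E was lower (-0.21 ± 0.07 (SE), adjusted p = 0.0466), although its groups overlapped. CR31B replicate 4 stood at 51.9 CPM and DMSO replicate 3 at 51.4 CPM. The delta subunit gene ATP5F1D was not called (-0.13 ± 0.07 (SE), adjusted p = 0.159). With the replicate block ATP5F1D was lower (adjusted p = 0.0297).

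The membrane ring of complex V is built from the c subunit, for which ATP5MC1, ATP5MC2 and ATP5MC3 encode the same mature protein behind different import signals. ATP5MC1 stood at 85.7, 80.8 and 80.7 CPM in CR31B replicates 2 to 4 and 99.8, 97.5 and 97.4 CPM in DMSO replicates 2 to 4. ATP5MC2 stood at 121, 125 and 119 CPM in CR31B replicates 2 to 4 and 152, 147 and 151 CPM in DMSO replicates 2 to 4. ATP5MC3 stood at 140.1, 138 and 112 CPM in CR31B replicates 2 to 4 and 141, 142 and 142 CPM in DMSO replicates 2 to 4. The CR31B and DMSO values were apart for all 3, but CR31B replicate 4 was far below the other 2 CR31B libraries for ATP5MC3. ATP5MC1 and ATP5MC2 fell, with log2 fold changes of -0.25 ± 0.05 (SE) and -0.30 ± 0.05 (SE) (adjusted p = 0.00187 and 0.000477), and ATP5MC3 was not called (-0.13 ± 0.08 (SE), adjusted p = 0.227). Whether the 3 genes differ from one another in their change was not tested.

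The peripheral stalk, which holds the head still, had ATP5PB, ATP5PD and ATP5PF lower, with log2 fold changes of -0.24 ± 0.05 (SE), -0.29 ± 0.04 (SE) and -0.20 ± 0.05 (SE) (adjusted p = 0.00256, 0.000536 and 0.00777). ATP5PF lost its call with the offsets (-0.08, adjusted p = 0.336). The fourth gene, ATP5PO, was under the minimum at 0.892 CPM and was lower too (-0.69 ± 0.20 (SE), adjusted p = 0.0166). Among the small membrane subunits ATP5MF, ATP5ME and ATP5MPL fell, the last 2 without a call under the offsets (-0.24, adjusted p = 0.141, and -0.15, adjusted p = 0.127). ATP5MF, with the lowest fold change of all members (-0.62 ± 0.14 (SE), adjusted p = 0.00467), stood at 1.68, 2.09 and 1.77 CPM in CR31B replicates 2 to 4 and 2.94, 2.77 and 2.82 CPM in DMSO replicates 2 to 4, and in replicate 1 at 2.04 CPM with CR31B and 1.75 CPM with DMSO. Its groups were apart, but 44.6% of its coding bases lie in overlapping genes. ATP5MD (-0.14 ± 0.06 (SE), adjusted p = 0.084) and ATP5MG (-0.08 ± 0.11 (SE), adjusted p = 0.593) were not called, and with the replicate block ATP5MD was lower (adjusted p = 0.0279). The complex V median was -0.14 over all 8 libraries, and with the offsets 10 of the 16 members were lower.

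Levels within one complex differed widely even per length, although the proteins are assembled in fixed ratios. Length here means all annotated exon bases of a gene, which can exceed its longest transcript (NDUFV1, 5057 and 2528 bases). The part of this in the spread was not tested. The members' median was 22.1 CPM per kb of exon, from 0.407 (NDUFA11) to 306 (ATP5F1B), followed by NDUFS5 at 238 and COX5A at 120.0. Of the 88 genes that matched by symbol, 17 share coding bases with another annotated gene on the same strand. Their median level was 0.486 CPM per kb, beside 22.1 for the 71 genes with no shared coding bases. Of the 17, 9 were under the minimum (NDUFA7, NDUFA13, NDUFB8, NDUFV2, COX6B2, COX8A, ATP5PO and the readthrough genes NDUFC2-KCTD14 and ATP5MF-PTCD1) and 8 were members. NDUFV2, a core subunit of complex I, had 84.7% of coding bases shared, and NDUFB8, an accessory subunit, 85.2%. COX8A, just outside the minimum at 0.996 CPM, had 55.1%. The counting rule for reads in overlapping genes is not given in the sources used here, and its part in these levels was not tested. Without the 8 members that share coding bases, 50 of 63 members were lower and 1 (NDUFS1) was higher, since NDUFC2 and SDHD are among the 8. Among the 63 members of at least 10 CPM, 50 were lower and 3 higher (79.4% and 4.76%). Of the 9354 tested protein-coding genes of at least 10 CPM, 23.4% were lower and 34.4% higher.

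**Figure D5:**
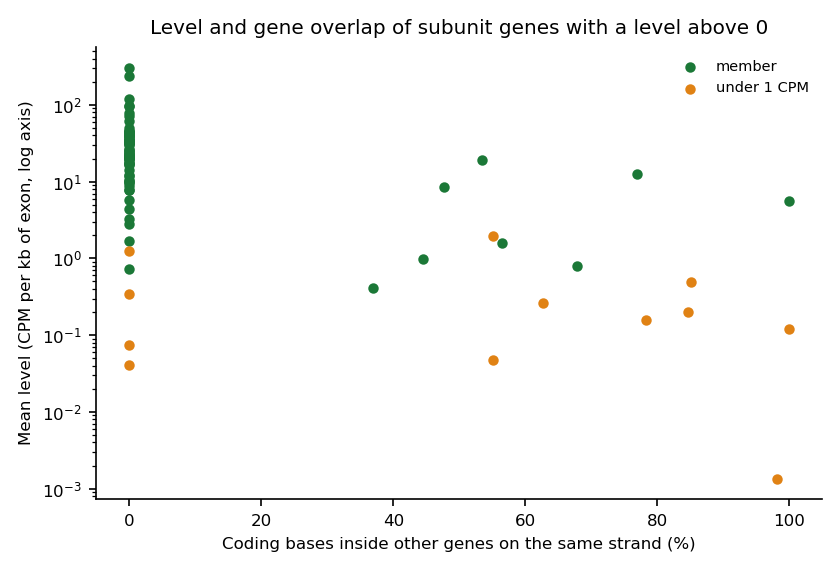
Mean level over the 8 libraries in CPM per kb of exon (y axis, log scale) against the percentage of a gene's coding bases that lie in other genes on the same strand (x axis) for the subunit genes matched by symbol with a level above 0; green points are members and orange points are genes under 1 CPM. Over all matched genes, including those at 0 that are not drawn, the 17 with shared bases have a median of 0.486 CPM per kb, beside 22.1 for the 71 without.

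Of 4 subunits and partners that the symbol rule leaves out, 2 were lower and 2 were not called in the single-end libraries. CYC1, the cytochrome c1 of complex III, and NDUFAB1, the acyl carrier protein of complex I, were lower, with log2 fold changes of -0.22 ± 0.05 (SE) and -0.28 ± 0.07 (SE) (adjusted p = 0.00584 and 0.00669). Cytochrome c itself (CYCS, 0.10) and the ATP synthase inhibitor ATP5IF1 (-0.15) were not called. With the replicate block CYCS was higher (adjusted p = 0.0394) and ATP5IF1 lower (adjusted p = 0.0307), which made 3 lower and 1 higher. Of all tested genes 23.1% were lower and 28.1% higher with the block. With the offsets 1 of the 4 was lower, and NDUFAB1 lost its call (-0.14, adjusted p = 0.209).

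The assembly factors, which insert cofactors and join subunits and are no part of the finished enzymes, had 17 lower and 4 higher of 53 tested (32.1% and 7.55%, beside 17.6% and 23.8% of all tested genes), with a median log2 fold change of -0.16, and -0.09 over all 8 libraries. With the replicate block 24 were lower and 6 higher, where 23.1% and 28.1% of all tested genes were. DMAC2, UQCC2 and SURF1, which act in the assembly of the complex I membrane arm, complex III and complex IV, fell with log2 fold changes of -0.50 ± 0.07 (SE), -0.45 ± 0.06 (SE) and -0.38 ± 0.05 (SE). UQCC2 stood at 21.7 ± 0.105 CPM with CR31B and 29.7 ± 0.952 CPM with DMSO (SD, n = 3 each). ATPAF1, which assembles the F1 head, had -0.38. NDUFAF4, a complex I factor, rose from 80.4 ± 3.60 CPM to 101 ± 5.33 CPM (SD, n = 3 each; log2 fold change 0.32 ± 0.06 (SE), adjusted p = 0.00117), and COA6 and TACO1, factors of complex IV, rose by 0.25 and 0.23 on the log2 scale. Whether assembly factors and subunits differ was not tested.

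Of 13 regulators of respiratory genes, 4 were higher (30.8%, beside 23.8% of all tested genes) and 1 lower (7.69%, beside 17.6%). With the replicate block 6 were higher and 1 lower, where 28.1% and 23.1% of all tested genes were. YY1 stood at 366, 353 and 385 CPM in CR31B replicates 2 to 4 and 239.9, 236 and 253 CPM in DMSO replicates 2 to 4, and in replicate 1 at 243 CPM with CR31B and 361 CPM with DMSO. GABPA, the DNA-binding subunit of the ETS factor GABP, stood at 99.0, 108 and 104 CPM in CR31B replicates 2 to 4 and 69.1, 71.3 and 68.2 CPM in DMSO replicates 2 to 4, and in replicate 1 at 71.7 CPM with CR31B and 108 CPM with DMSO. YY1 and GABPA mRNA were higher in the single-end CR31B libraries in which most members were lower. Their log2 fold changes were 0.60 ± 0.05 (SE), adjusted p = 1.46e-05, and 0.58 ± 0.05 (SE), adjusted p = 1.31e-05. NRF1 and TFB2M were also higher (0.41 and 0.33), and PPARGC1A, a coactivator of mitochondrial biogenesis, was lower (-0.33 ± 0.10 (SE), adjusted p = 0.0225). Of 13 enzymes of the tricarboxylic acid cycle, 3 were higher (23.1%, beside 23.8% of all tested genes) and 5 lower (38.5%, beside 17.6%). DLST had -0.25, DLD 0.26 and OGDH 0.24. With the offsets 1 of the 13 was higher and 3 lower, where 19.2% and 19.9% of all genes were, and DLD had 0.15, adjusted p = 0.0506. As for the members, none of these genes was called by edgeR over all 8 libraries.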

How the data were processed

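The authors deposited raw counts per Ensembl gene, whole numbers without normalisation, in 1 table of 8 libraries. Per the submitters' processing notes, STAR 2.7.2b, FastQC 0.11.7, edgeR 3.36.0, limma 3.50.3 and GRCh38 were used, with no role or order. The counting tool, strand setting and annotation are not given in the sources used here, so a gene and an antisense partner cannot be told apart. Per the labels' protocols the kit was one for small RNA, although the molecule is given as polyA RNA; 98.3% to 98.6% of counts fell in protein-coding genes.

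Counts were tested with edgeR 4.0.16 (R 4.3.3; filterByExpr, TMM, two-sided quasi-likelihood test, Benjamini-Hochberg over all tested genes, threshold 0.05), with layout as a covariate in the 8 libraries and no covariate in the 6 single-end ones. The code was tested on simulated data. CPM are TMM-normalised, and per-library log2 CPM have a prior count of 1. DESeq2 1.42.0, limma 3.58.1 (voom), other scalings and filters, the replicate block and left-out libraries were alternatives. So were loess offsets (span 0.3) on the GC content and log2 length of a gene's longest transcript. Same-numbered single-end libraries deviated together (correlations of 0.21, 0.38 and 0.16), so the numbers were taken to pair them in the replicate block. The main single-end fit did not use this pairing. It called 6901 genes, and the fit with the block 8540. Over all 8 the correlations were -0.51, -0.07, 0.17 and -0.10. No 2 libraries agreed within sampling noise (smallest mean chi-square per gene 6.61).

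Gene positions, lengths and overlaps come from GENCODE 29, which held 58515 of the 58787 identifiers, and promoters from RefSeq. Members and lists were chosen with earlier results of these data known. Genes named are, by rule, up to 4 higher and 4 lower per complex with the lowest adjusted p, the core subunits and isoform pairs whatever their values, and up to 2 higher and 2 lower per related list; other genes were named after their values were seen, and a few that the rule names are not reported here. Intervals and the limit for a count of 0 cover counting error only, since PCR duplicates are not marked.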

Additional observations from a re-analysis of the deposited data

Results flagged for a closer look

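In each group of 4 libraries the gap between the highest or lowest library and its nearest neighbour, as a share of the group's range, was compared with Dixon's 95% limit, which chance passes about 1 time in 20. Of 146 such tests, made for the genes that the naming rule picks and for the medians of the complexes and not for every member, 26 passed, where chance gives about 7.3, and in 23 of them the distant library was replicate 1. Many of these genes were picked for a low adjusted p in replicates 2 to 4, and the tests are not independent. The rate of 1 in 20 is therefore no fair baseline here, and no conclusion is drawn from the count. DMSO replicate 1 was distant for the members NDUFS4 (0.854), NDUFV1 (0.889), SDHD (0.886), UQCR11 (0.854), COX4I1 (0.836), ATP5F1C (0.859), ATP5MC2 (0.837) and ATP5PD (0.876), for COX4I2 (0.831) and NDUFA4L2 (0.878), and among related genes and markers for UQCC1 (0.877), SURF1 (0.904), COA6 (0.891), GABPA (0.922), YY1 (0.864), HAND2 (0.948) and GATA3 (0.943). CR31B replicate 1 was distant for COX6A1 (0.849), COX7A2L (0.898), NDUFA4 (0.848), ATP5PD (0.885), NDUFV2 (0.937) and UQCC2 (0.965). The remaining ones were SDHAF4 with DMSO replicate 3 distant (0.835), and PPARGC1A (0.938) and VIM (0.930) with DMSO replicate 2 distant.

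The CR31B difference in the replicate 1 pair differed from that in replicates 2 to 4 for 48 of the 71 members by the interaction test, with opposite signs in all 48.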

How the results depend on the processing

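In the 8 libraries as labelled the count of called members ran from 0 to 55 over the left-out libraries (higher 0 to 3, lower 0 to 52), with the values above 0 only when CR31B replicate 1 (55: 3 higher, 52 lower) or DMSO replicate 1 (54: 3 higher, 51 lower) was left out. In the whole table these 2 fits called 6920 of 16640 and 6906 of 16807 genes (17.8% and 17.4% lower). In the 6 single-end libraries the members' median log2 fold change, -0.26, was -0.36 with upper quartile scaling, -0.34 with total counts, -0.30 with a filter of 1 CPM in 3 libraries, and -0.21 with GC and length offsets, with or without the replicate block. Leaving out each library gave -0.28 to -0.21, with 43 to 49 members lower and 3 higher. In these fits 13.0% to 16.5% of all tested genes were lower, beside 17.6% with the 6 libraries. The genes called higher were 3350 to 3949, beside 3968. Upper quartile scaling moved the median of all genes to -0.10, and total counts moved it to -0.08. The members' median minus that of all genes was -0.253 in the main fit and -0.255 with either scaling. With the filter of 1 CPM in 3 libraries it was -0.277, and with the offsets -0.175. The replicate block gave 57 lower and 3 higher, beside 23.1% and 28.1% of all genes, and kept all 56 calls. No called member changed sign under any of these settings. Counting only members without shared coding bases left 1 higher, an alternative chosen after seeing the data; the members of at least 10 CPM were another. The sign of SDHB turned with the offsets (0.071 without and 0.067 with the block), as did those of NDUFA8 (0.080 and 0.081), NDUFB1 (0.041 and 0.042), NDUFA9 (-0.20 in both), NDUFV2 (0.030 and 0.040) and COX6B2 (0.0067 and 0.0016), none of them called without the offsets. Over left-out libraries the genes under the minimum that changed sign, none of them called by edgeR, ran from -0.36 to 0.035 (COX4I2), -0.29 to 0.12 (COX6B2), -0.24 to 0.067 (NDUFV2) and -0.33 to 0.092 (SDHA). The causes were not tested. Depth limits the genes near 1 CPM, such as UQCRHL and ATP5MF, more than the rest.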
